A study of Mus musculus with 4 samples.

Results

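The genes described here are the matrix metalloproteinases (Mmp), the ADAMTS metalloproteinases (Adamts) and their tissue inhibitors (Timp) of the mouse molar tooth organ. They were taken by symbol, as every Mmp, Adamts or Timp gene with a numbered name in the deposited feature list apart from 1 Mmp gene not analysed here, which gave 44 of 32285 features: 21 Mmp, 19 Adamts and 4 Timp genes. Single-cell RNA sequencing had been performed on molar tooth organs of wild-type mice (genotype WTB6 in the labels) at embryonic stage E15.5 (E15 in the labels) and on postnatal day 1 (P1 in the labels, P0/P1 in the protocol), with the maxillary and the mandibular molars sequenced apart. Each stage and jaw had 1 library, made from 6 pooled tooth organs, and the pooled organs could not be separated again. No sex, transgene or treatment was given for any library. The stages and jaws were compared to ask how the transcripts of the upper and lower molar differ as the tooth germ matures. Since no group had a second library, no test between stages or jaws could be made, and every interval given is a 95% interval that covers counting error only.

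Mmp enzymes cleave collagens, gelatin and other matrix proteins, and most are secreted as inactive precursors, while a membrane-type subgroup is held at the cell surface. The Adamts enzymes are secreted relatives with thrombospondin repeats, among them procollagen N-propeptidases and enzymes that cleave the proteoglycans aggrecan and versican. Timp proteins bind the active site of both groups, and in teeth and jaw bone these enzymes are known for turning over the basement membrane and collagen matrix during morphogenesis, mineralization and eruption.

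Of the 44 genes, 30 have an entry among the RefSeq promoters of the GRCm38.p6 build. The upstream sequences of chromosome 9 genes are shown because 8 Mmp genes lie side by side there, between positions 7272514 and 7699585, yet differed widely in the cells that held their transcripts. The 250 bases before the start are printed for Mmp13 and the nearest 100 for the others. Capitals mark TGANTCA, the letters of an AP-1 site, and, in Mmp13 alone among the sequences printed, ACCACA, the letters of a RUNX site. Both were searched on both strands of the 250 bases before the start.
Mmp13, chr9:7272264-7272513, plus strand: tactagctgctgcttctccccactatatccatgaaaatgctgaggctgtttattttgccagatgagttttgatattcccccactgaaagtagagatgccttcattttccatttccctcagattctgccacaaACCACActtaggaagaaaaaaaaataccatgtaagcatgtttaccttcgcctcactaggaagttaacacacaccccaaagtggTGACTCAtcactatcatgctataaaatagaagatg
Mmp12, chr9:7347274-7347373, plus strand: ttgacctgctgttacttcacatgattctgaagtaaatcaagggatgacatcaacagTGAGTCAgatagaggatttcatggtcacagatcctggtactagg
Mmp3, chr9:7445722-7445821, plus strand: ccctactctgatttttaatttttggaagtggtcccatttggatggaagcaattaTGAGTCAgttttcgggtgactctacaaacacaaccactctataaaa
Mmp10, chr9:7502242-7502341, plus strand: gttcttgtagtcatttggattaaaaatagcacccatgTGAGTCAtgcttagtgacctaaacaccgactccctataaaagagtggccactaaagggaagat
Mmp8, chr9:7558329-7558428, plus strand: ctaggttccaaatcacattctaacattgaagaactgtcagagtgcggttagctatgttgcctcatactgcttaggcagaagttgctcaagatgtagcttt
The TGANTCA letters lay 35 bases before the start in Mmp13, 44 in Mmp12, 46 in Mmp3 and 63 in Mmp10. They occurred in 6.75% of all 32851 promoters and in 6 of the 30 matched genes, namely Mmp10, Mmp12, Mmp13, Mmp1b, Mmp3 and Mmp7. ACCACA occurred in 14.0% of all promoters and in Mmp13, Mmp14, Mmp1b, Mmp23, Mmp27 and Mmp7. Of the genes with TGANTCA, Mmp13 was expressed in bone-forming cells of the molars, whereas Mmp1b and Mmp7 had 3 UMIs each over the 4 libraries, Mmp10 had 7, Mmp12 had 34 and Mmp3 had 248. Mmp8 has neither set of letters in the stretch shown and was read in neutrophil-like cells.

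A unique molecular identifier (UMI) marks 1 captured transcript. Barcodes with at least 1000 UMIs were kept, which left 10073 cells from the E15.5 maxillary library, 6911 from the E15.5 mandibular, 17040 from the P1 maxillary and 10120 from the P1 mandibular. Median UMIs per kept cell were 9596, 11234, 4019 and 10390 in that order. The 44 genes together held 161202, 118623, 177131 and 184806 UMIs, or 1477, 1380, 1388 and 1605 counts per 1000000 UMIs (CPM), so their summed share was close to the same in every library. Gene positions are those of the mm10 build. Levels below are the CPM of a gene over the summed UMIs of a cell class. Clusters were drawn in each library without the 44 genes and were named by marker lists, and each class is called "-like" its type.

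The P1 libraries were not independent. They shared 7131 barcodes, against 28 to 70 for any other pair of libraries. Their median depth was 12088 UMIs as maxillary and 2870 UMIs as mandibular cells, and they were dropped from the latter. In the P1 maxillary library they made up 41.8% of the cells kept, but 96.9% of dental papilla-like, 94.9% of mineralizing, 90.0% of ameloblast-like and 20.2% of the other mesenchyme-like cells. Shared and unshared mesenchyme-like cells of that library also differed in patterning transcription factors: Alx1 stood at 0.399 and 145 CPM, Pax3 at 0.337 and 166, and Barx1 at 636 and 204. Hand2, a factor of the lower jaw, was at 0.0613 CPM in the shared and at 0 UMIs in the unshared cells, against 9.07 CPM in the P1 mandibular library. From which library the shared barcodes came was not settled. P1 maxillary ratios in the comparisons are therefore also given without the shared barcodes where a call depends on them, and the levels by class include them. Levels over the whole P1 maxillary mesenchyme differed between shared and unshared cells too, for example 220 and 312 CPM for Mmp16, 126 and 175 CPM for Mmp2, 201 and 293 CPM for Timp2 and 128 and 82.0 CPM for Adamts9. In addition, the epithelium of the E15.5 mandibular library was 1 Krt13-led cluster of 143 cells, and no cluster of the P1 maxillary library was named osteoblast-like. Its dental follicle-like cluster of 531 cells had Ibsp, Runx2 and Pdzrn4 among its leading genes, as had an osteoblast-like cluster of the E15.5 maxillary and of the P1 mandibular library. Of these genes the P1 mandibular follicle-like cluster had Ibsp alone. Similar clusters were also named apart: Tnn- and Ibsp-led cells were osteoblast-like in the E15.5 maxillary library but part of a Col2a1-led chondrocyte-like cluster in the E15.5 mandibular one, and Rbp4-expressing cells were fibroblast-like in the former and other mesenchyme-like in both mandibular libraries. Values of these classes in different libraries are thus not of like cells, and comparisons of whole tissues also compare what cells were caught.

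Across the cell classes with at least 50 cells, 29 of the 44 genes reached 10 CPM in a class of every library. The map of levels by class and library shows genes that peak in mesenchyme-like classes beside many that peak in blood-derived, Schwann-, pericyte- or endothelium-like ones, and Adamts17 and Adamts18 high in epithelium. Summed over all 44 genes, mesenchyme-like cells held 1990, 2040, 1690 and 2020 CPM in the E15.5 maxillary, E15.5 mandibular, P1 maxillary and P1 mandibular libraries, and epithelium-like cells 755, 697, 840 and 962. Erythroid-like cells, which should express few of these genes, held 35.5, 18.7, 75.4 and 97.0 CPM in the 4 libraries, and serve as the level that free RNA can give.

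**Figure D1:**
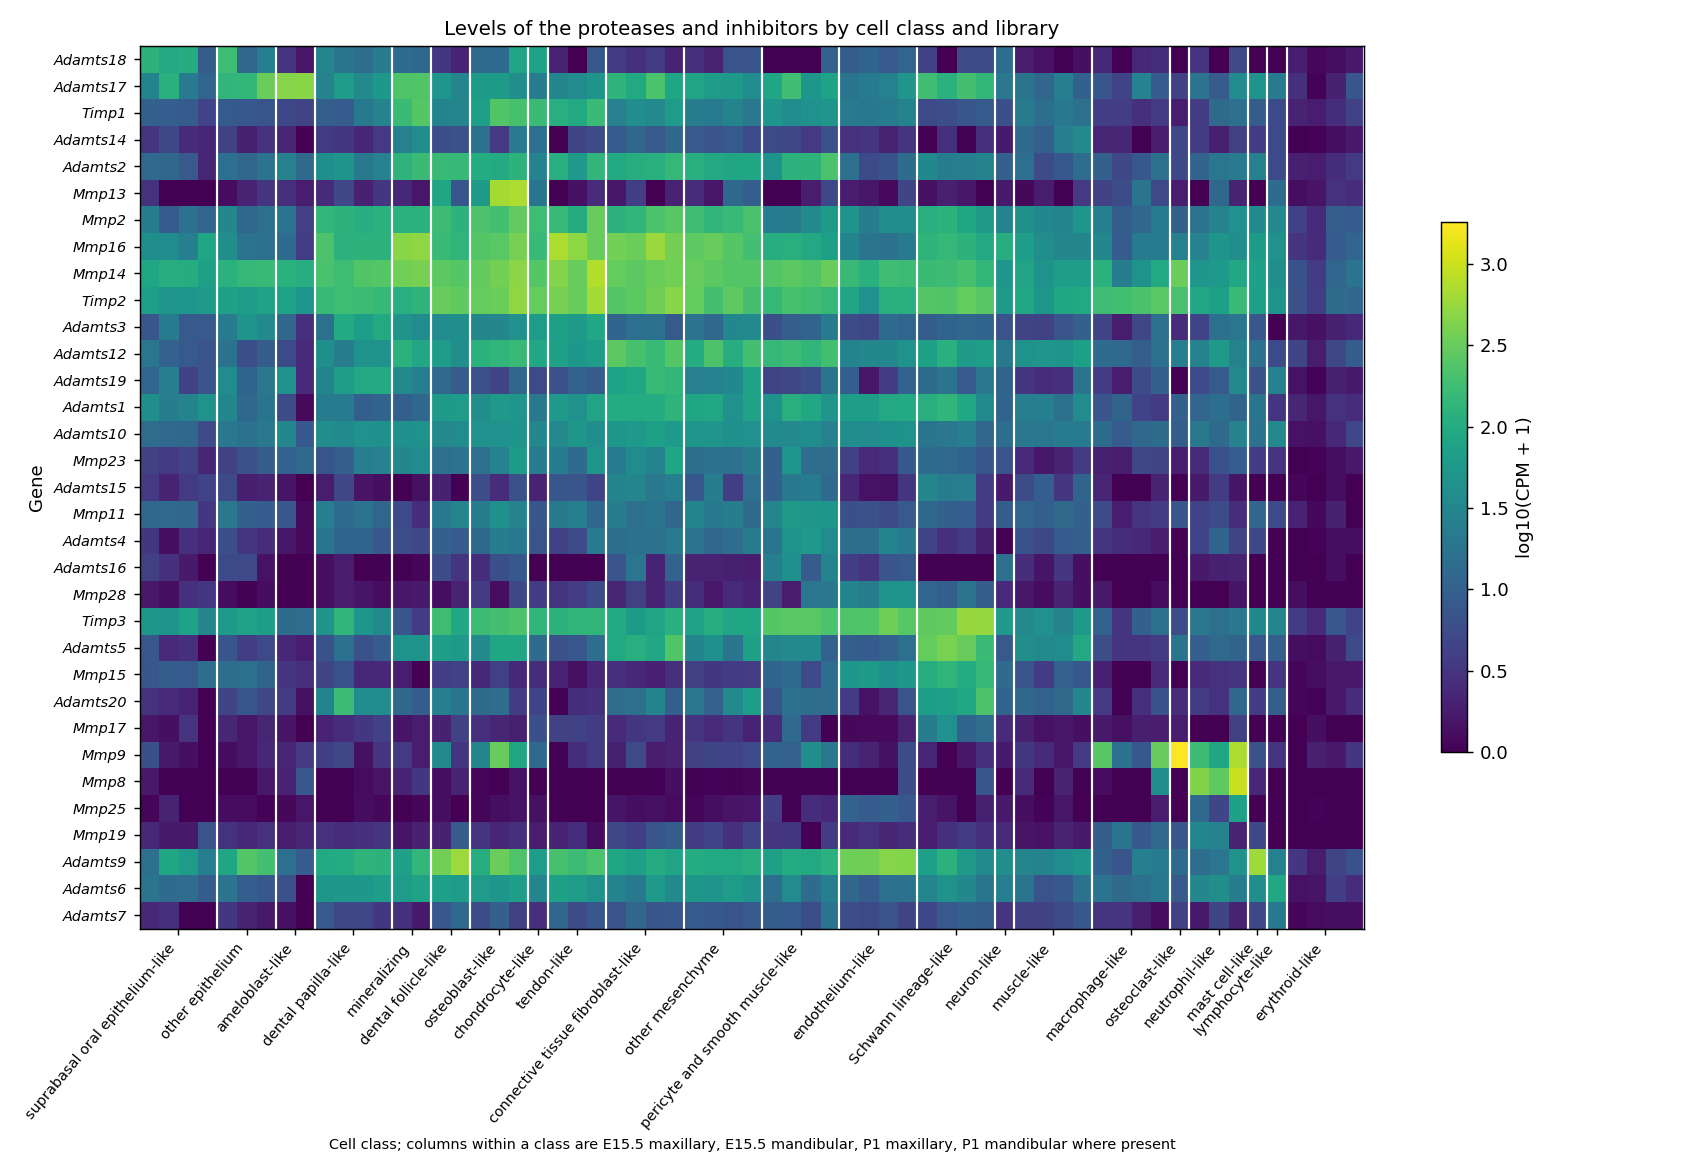
Level of 33 genes (rows) in every cell class with at least 50 cells in each library (63 columns, grouped by class), as log10(CPM + 1) by colour. Columns within a class run E15.5 maxillary, E15.5 mandibular, P1 maxillary, P1 mandibular where present, and the brightest cells of a row fall in mesenchyme-like, glial, vascular, blood-derived or epithelial classes depending on the gene, for example Mmp8 in neutrophil-like and Mmp9 in osteoclast- and neutrophil-like cells.

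Among the collagenases and gelatinases, Mmp13 (collagenase 3, which cleaves fibrillar collagen in bone and growth cartilage) was expressed in osteoblast-like cells. Its level there was 58.3 CPM (53.8 to 63.1) in the E15.5 maxillary, 650 CPM (622 to 678) in the E15.5 mandibular and 702 CPM (668 to 738) in the P1 mandibular library. The osteoblast-like class held 75.6%, 91.5% and 80.7% of all Mmp13 UMIs in these libraries with 11.1%, 3.14% and 1.95% of the cells. After thinning every cell to 1000 UMIs, Mmp13 was detected in 3.13%, 30.9% and 22.3% of osteoblast-like cells (9.04%, 73.7% and 36.5% unthinned), and in no more than 0.192% of erythroid-like cells. The E15.5 maxillary value was the low one, and it was uneven within the class: an Spp1-led cluster of 547 cells held 116 CPM and a Tnn- and Ibsp-led cluster of 570 cells held 4.91 CPM. In the P1 maxillary library Mmp13 was spread over dental follicle-like cells at 83.3 CPM (73.3 to 94.4), with 38.1% of its UMIs, and other mesenchyme-like cells, with 40.3%.

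Mmp9 (gelatinase B, known from osteoclasts and neutrophils; chr2:164940780-164955850) reached 1792 CPM in the 87 osteoclast-like cells of the E15.5 mandibular library, the sole library where such a class could be named, and 36 of the 87 cells, those with a UMI of Atp6v0d2, an osteoclast proton-pump subunit, held 99.6% of its 2222 UMIs. In neutrophil-like cells it stood at 171 and 82.8 CPM at E15.5 and at 719 CPM in the P1 mandibular library, with 755 CPM in only 41 cells of the P1 maxillary library. Macrophage-like cells differed between libraries, with 254 CPM in the E15.5 maxillary, 16.1 in the E15.5 mandibular, 6.96 in the P1 maxillary and 316 in the P1 mandibular. In the high pair of these, the UMIs came from few cells: 50 of 329 macrophage-like cells with an Atp6v0d2 UMI held 98.1% of 1104 Mmp9 UMIs in the E15.5 maxillary library, and 18 of 301 held 97.7% of 1124 in the P1 mandibular library. Osteoblast-like cells held 29.4 CPM of Mmp9 in the E15.5 maxillary, 311 in the E15.5 mandibular and 81.4 in the P1 mandibular library. In the E15.5 mandibular library 1 of 217 osteoblast-like cells had an Atp6v0d2 UMI and carried 2.91% of 995 Mmp9 UMIs. Erythroid-like cells held 0 to 2.27 CPM of Mmp9.

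Mmp8, the neutrophil collagenase, was read in neutrophil-like cells at 436 CPM (402 to 472) in the E15.5 maxillary, 280 CPM (249 to 314) in the E15.5 mandibular and 960 CPM (916 to 1005) in the P1 mandibular library. No Mmp8 UMI was found in erythroid-like cells of any library. The 41 neutrophil-like cells of the P1 maxillary library held 1152 CPM. A further 243 cells of that library, in an unnamed cluster led by Cma1 and Mcpt4, held 69.7 CPM of Mmp8 and 549 CPM (502 to 599) of Mmp9. Of its 496 Mmp9 UMIs, 98.4% lay in 17 cells with an Atp6v0d2 UMI. Mmp2 (gelatinase A, cleaved to its active form at the cell surface by Mmp14 with Timp2) was by contrast broad in mesenchyme, with 174, 142, 135 and 174 CPM in mesenchyme-like cells in library order and 220, 192 and 297 CPM in osteoblast-like cells of the 3 libraries that had them.

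**Figure D2:**
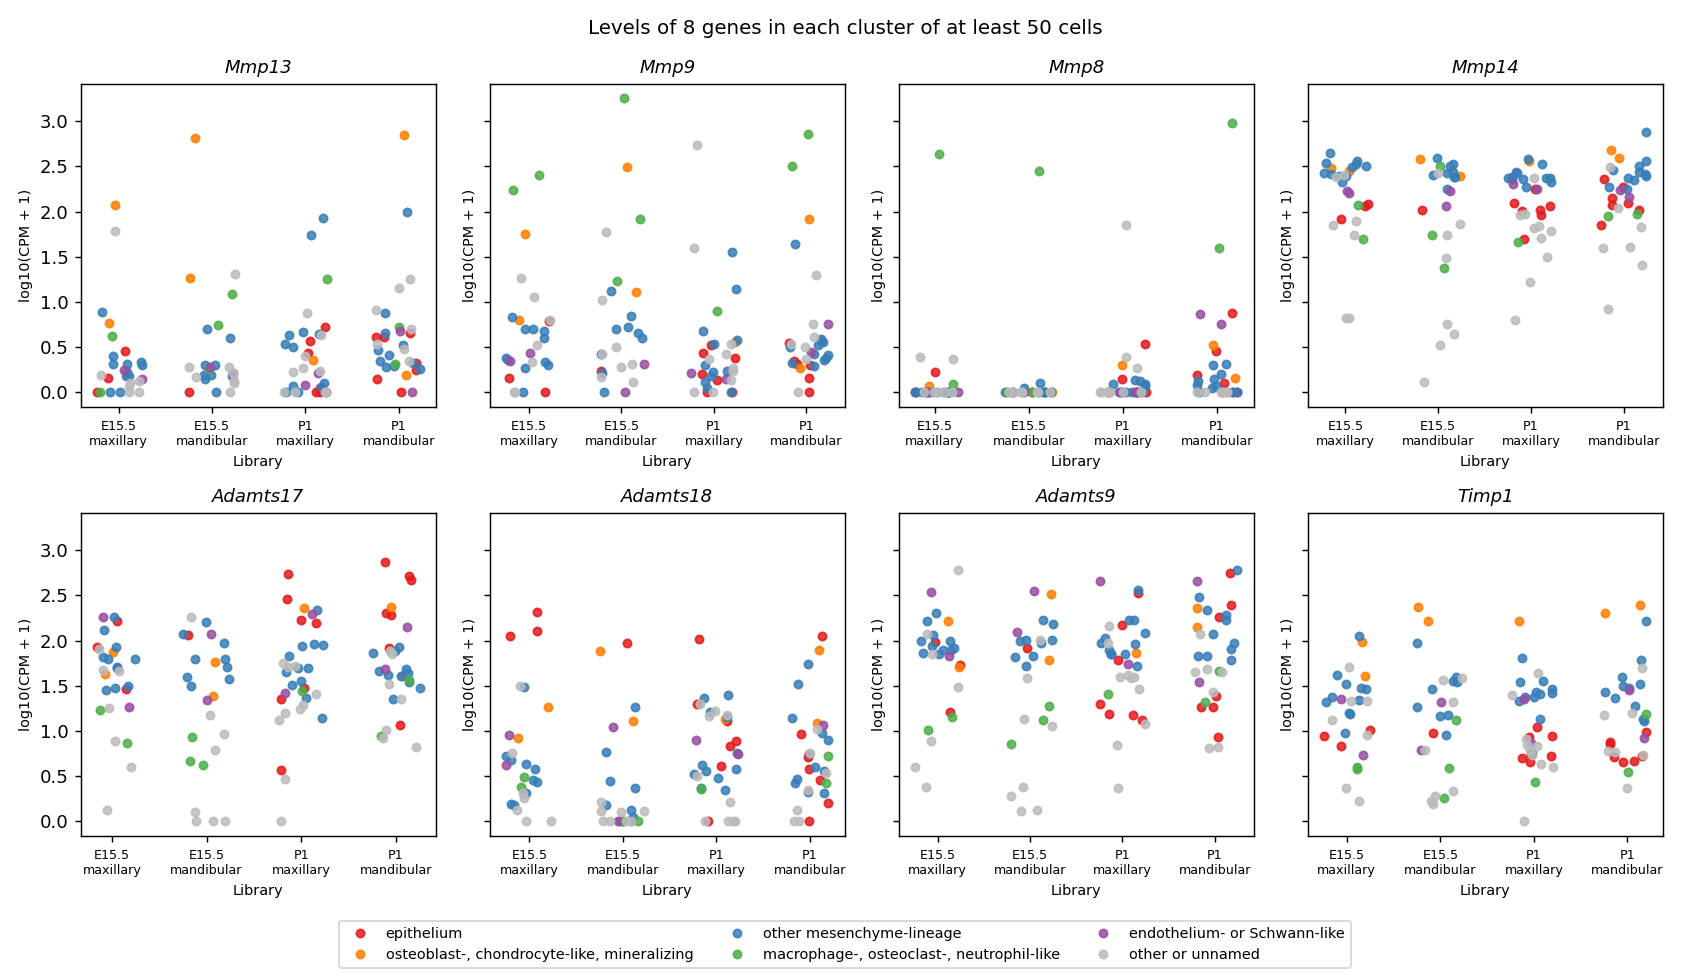
Level of 8 genes in every cluster of at least 50 cells, as log10(CPM + 1) on the vertical axis against library, coloured by the broad kind of cell. Mmp13 is highest in osteoblast-like clusters, Mmp9 and Mmp8 in blood-derived ones, and Mmp14 is spread over mesenchyme. Adamts18 has its highest points in epithelium, as has Adamts17 at P1 but not at E15.5.

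The plot of clusters shows the contrast with the membrane-type enzymes. Mmp14 (MT1-MMP, a collagenase and the activator of Mmp2) was expressed throughout the mesenchyme, at 304, 277, 259 and 313 CPM in the 4 libraries. It was detected in 25.7%, 23.3%, 22.2% and 26.1% of mesenchyme-like cells after thinning (86.9%, 89.4%, 68.3% and 88.6% unthinned), beside 0.940%, 0.491%, 0.623% and 0.576% of erythroid-like cells, whose median UMI counts were 7893, 7446.5, 1980 and 6292. Mmp14 was thus at a similar level in both jaws and both stages, and it was higher still in tendon-like cells (450, 318 and 751 CPM where the class was found). Mmp16 (MT3-MMP, another activator of Mmp2) stood at 290, 300, 236 and 233 CPM in mesenchyme, and reached 714 CPM in E15.5 maxillary tendon-like and 576 CPM in P1 maxillary fibroblast-like cells.

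Other membrane-associated enzymes had narrower sources. Mmp15 (MT2-MMP) was highest in Schwann-like cells in each library, at 106, 134, 101 and 147 CPM, followed by endothelium-like cells at 49.9, 57.7, 41.8 and 53.6 CPM. Mmp17, a glycolipid-anchored enzyme named here after its values were seen, was also highest in Schwann-like cells, at 23.3, 42.9, 10.3 and 13.7 CPM, and was the gene of the family that was lower at P1 in that class in both jaws by at least 2-fold (1 of 20 tested, 0.491% of all genes, with 0 higher, 0.651%). Mmp28 (epilysin), chosen likewise, was highest in endothelium-like cells at 28.0, 23.1, 44.3 and 44.0 CPM. Mmp11 (stromelysin 3, activated inside the cell by furin) and the proteoglycanase Adamts4, the latter chosen after its values were seen, were highest in pericyte-like cells, Mmp11 at 28.8, 57.3, 48.4 and 52.5 CPM and Adamts4 at 17.0, 45.4, 56.9 and 36.3 CPM. In the E15.5 maxillary library neither stood apart, as Mmp11 was 28.0 CPM in other mesenchyme-like and Adamts4 16.8 CPM in papilla-like cells. Mmp23, a short enzyme lacking the usual hemopexin domain, stood at 15.1 and 21.1 CPM in E15.5 mesenchyme and at 22.1 and 36.0 CPM in P1 mesenchyme, where the unshared maxillary cells alone held 15.1 CPM.

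The proteoglycan-cleaving Adamts genes had their highest levels in different classes. Adamts9, known for versican cleavage, was expressed in endothelium-like cells at 345, 351, 458 and 451 CPM. In E15.5 mandibular osteoblast-like cells it stood at 327 CPM, close to the 351 CPM of endothelium-like cells there. It also stood at 365 and 605 CPM in P1 follicle-like cells, a class whose leading genes differed in part between the jaws. In 55 mast-like cells of the E15.5 maxillary library it was at 599 CPM. Adamts5, the main aggrecanase of mouse cartilage, was read in Schwann-like cells at 303, 392, 316 and 162 CPM and in fibroblast-like cells at 94.7, 110, 86.4 and 233 CPM. Adamts20, known for its role in pigment cell survival, was also present in Schwann-like cells, at 66.2, 68.0, 87.4 and 218 CPM, while in the E15.5 mandibular library its highest level was 168 CPM, in 101 papilla-like cells. Adamts1 was highest in Schwann-like cells at E15.5, at 109 and 139 CPM, and was read in fibroblast-like cells at 99.0, 99.8, 103 and 128 CPM, the highest of any class at P1.

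Of the procollagen N-propeptidases, which trim fibrillar procollagens, Adamts2 stood at 104, 85.1, 61.7 and 81.7 CPM in mesenchyme, Adamts3 at 20.7, 23.3, 48.7 and 58.7 CPM, and Adamts14 was highest in muscle-like (23.9 and 33.4 CPM) and mineralizing cells (25.2 and 38.7 CPM) at P1. Adamts12, which binds cartilage oligomeric matrix protein, was expressed in fibroblast-like cells at 273, 203, 158 and 248 CPM. Adamts10, linked to fibrillin microfibrils, was even over mesenchyme, at 47.1, 47.8, 44.6 and 44.8 CPM, and with Adamts19 it was highest in fibroblast-like cells in all 4 libraries. Adamts6, a close relative of Adamts10, stood at 49.2, 41.2, 57.8 and 56.3 CPM in mesenchyme.

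Timp2, the inhibitor that also takes part in Mmp2 activation, was expressed across mesenchyme at 285, 237, 217 and 242 CPM and was also present in macrophage-like cells at 172, 184, 211 and 259 CPM. Timp1, a secreted inhibitor of most Mmp enzymes, was highest in bone- and tendon-forming classes, with 68.3, 237 and 201 CPM in osteoblast-like and 111, 93.7 and 162 CPM in tendon-like cells. At P1 its highest class was the mineralizing one, at 163 and 247 CPM. In the E15.5 mandibular library chondrocyte-like cells came second, at 165 CPM. Timp3, the matrix-bound inhibitor that also blocks Adamts4 and Adamts5, was highest in Schwann-like cells, at 288 CPM (268 to 310), 293 CPM (271 to 317), 560 CPM (523 to 599) and 554 CPM (511 to 600). Pericyte-like cells came next at E15.5, with 245 and 264 CPM. In Schwann-like cells both P1 libraries were above both E15.5 libraries, with log2 ratios of 0.96 and 0.92, just under the 2-fold mark. Timp4 had 349 UMIs in all and reached 22.7 CPM (18.1 to 28.1) in P1 mandibular endothelium-like cells, against 0.753 to 2.06 CPM in the same class of the other 3 libraries. Timp1 lies at chrX:20870166-20874735 inside Syn1 on the opposite strand and Timp3 at chr10:86300372-86349506 inside Syn3 on the opposite strand, and counting by the Cell Ranger pipeline uses strand.

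Summed by family, the log2 ratio of Timp to Mmp transcripts in mesenchyme-like cells was −1.03, −1.06, −1.11 and −1.11 in the 4 libraries. It was higher in endothelium-like cells, at −0.04, 0.24, 0.48 and 0.20, and in Schwann-like cells, at −0.09, −0.28, 0.64 and 0.77. Macrophage-like cells differed in sign between libraries, at −1.28, 1.26, 0.89 and −0.91. The lowest ratios were those of osteoclast-like cells, at −3.34, and neutrophil-like cells, at −2.81, −2.51, −3.45 and −3.29 in library order. The P1 maxillary neutrophil-like value came from only 41 cells. The pooled mesenchyme thus had nearly the same ratio in each library, but classes within it did not: osteoblast-like cells had −0.71 in the maxillary and −1.29 in the mandibular molar at E15.5, and P1 fibroblast-like cells −1.34 and −0.77, though both classes pooled different clusters in different libraries. Osteoclast- and neutrophil-like cells lay far to the protease side.

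Epithelium was then compared with mesenchyme within each library. A gene was counted where it differed by at least 2-fold in the same direction in both jaws and had at least 10 CPM in the higher tissue of both. At E15.5, 22 of the 44 genes could be tested: 14 were lower in epithelium, beside 10.6% of all 10089 genes tested, and 1 was higher, beside 7.84%. At P1, 14 of 21 were lower (11.9% of all genes) and 1 was higher (8.13%). The median log2 ratio of the members was −1.81 in the maxillary and −2.14 in the mandibular E15.5 library and −1.70 and −2.08 at P1, against −0.01, 0.04, 0.06 and 0.06 over all genes tested. Without the shared barcodes the P1 counts were 15 lower and 0 higher.

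The genes lower in epithelium at both stages were Mmp2, Mmp16, Mmp23, Timp1, Timp2, Adamts2, Adamts4, Adamts5, Adamts6, Adamts10, Adamts12 and Adamts20. Mmp16 stood at 40.4, 37.8, 15.6 and 14.8 CPM in epithelium, far under its mesenchymal level, with log2 ratios of −2.85, −2.99, −3.92 and −3.98. Adamts12 had ratios of −2.93, −4.26, −4.04 and −4.11. Mmp2 had −2.74, −4.21, −3.28 and −3.78. These 3 genes came from those already counted as lower, so a gap between the tissues in each library follows from that rule. Mmp14 was shared more evenly, at 98.5, 104, 131 and 144 CPM in epithelium, and passed the mark at E15.5 (−1.62, −1.41) but missed it in the maxillary library at P1 (−0.99, −1.12). Mmp13 was counted at E15.5 only, with a ratio of −3.20 in the maxillary library and of at most −5.46 in the mandibular, where epithelium had 0 UMIs and the floor of 3 UMIs was used.

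Timp3 and Adamts9 were nearer to parity than Mmp14 in each library. Timp3 was 54.3, 47.7, 49.2 and 54.2 CPM in epithelium and 93.7, 108, 62.2 and 66.5 CPM in mesenchyme. Adamts9 was 43.2, 82.9, 128 and 149 CPM in epithelium and 100, 106, 120 and 131 CPM in mesenchyme, so that its ratio moved from −1.22 and −0.35 at E15.5 to 0.10 and 0.19 at P1.

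**Figure D3:**
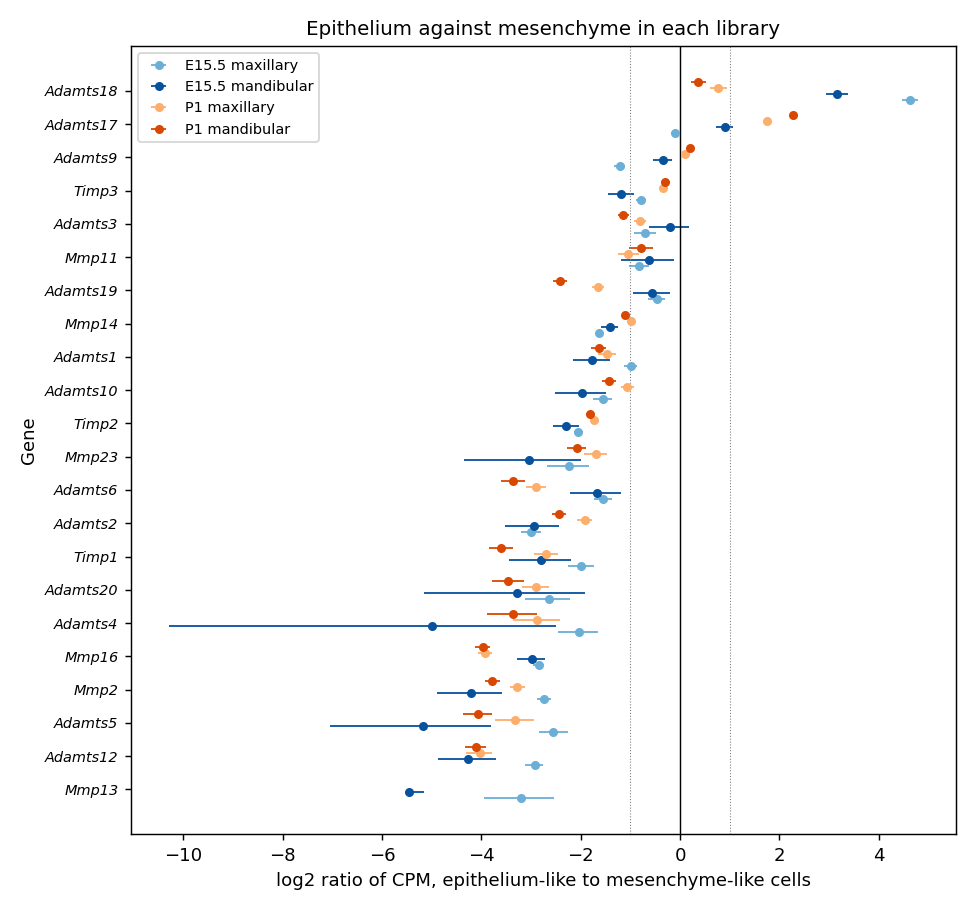
log2 ratio of CPM in epithelium-like to mesenchyme-like cells (horizontal axis) for each tested gene (vertical axis), 1 point per library with its 95% counting interval and dotted lines at 2-fold. Most points lie left of 0, and those of Adamts18 at E15.5 and Adamts17 at P1 lie to the right, with the Mmp13 mandibular point an upper bound.

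The genes that were higher in epithelium were Adamts18 at E15.5 and Adamts17 at P1. Adamts18 (chr8:113697126-113848738, minus strand), a relative of Adamts16, stood at 147 CPM (141 to 153) and 92.1 CPM (81.0 to 104) in epithelium against 5.94 and 10.3 CPM in mesenchyme at E15.5, with log2 ratios of 4.63 and 3.16. Adamts17 (chr7:66839735-67153171, plus strand), linked to fibrillin microfibrils, stood at 259 CPM (252 to 265) and 346 CPM (339 to 353) against 76.5 and 71.1 CPM at P1, with ratios of 1.76 and 2.28. At the other stage neither passed the mark: Adamts17 had −0.10 and 0.90 at E15.5, and Adamts18 had 0.77 and 0.36 at P1. The highest E15.5 classes of Adamts17 were Schwann-like cells in the maxillary and pericyte-like cells in the mandibular library, each at 181 CPM. Without the shared barcodes the P1 maxillary ratios were 0.03 for Adamts17 and 3.40 for Adamts18, so the P1 maxillary epithelial values of both rested on them.

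Epithelial clusters differed in which of these genes they held. In the E15.5 maxillary library an Susd4- and Shh-led cluster of 399 cells had 205 CPM of Adamts18 (192 to 219) and 163 CPM of Adamts17, and a Krt13-led cluster of 517 suprabasal oral-like cells had 126 and 28.3 CPM. At P1 the clusters with the most Adamts17 had almost no Adamts18. In the maxillary library the Vwde- and Igfbpl1-led cluster of 555 cells had 542 CPM of Adamts17 (526 to 560) and 3.09 CPM of Adamts18, and the Amelx- and Enam-led cluster of 253 cells, whose leading genes encode enamel matrix proteins, had 286 CPM and no UMI. These were 87.7% and 94.9% shared barcodes. The mandibular library, which kept none of those barcodes, showed the same arrangement: 747 CPM of Adamts17 (712 to 783) and no Adamts18 UMI in the Fgf9- and Vwde-led cluster of 229 cells, and 472 CPM (454 to 491) with 3 Adamts18 UMIs in the Enam- and Amelx-led cluster of 430 cells.

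At P1 Adamts18 was higher in other epithelial clusters and, in the mandibular library, in osteoblast-like cells. It stood at 77.8 CPM in P1 mandibular osteoblast-like cells, its highest class there, and next came other epithelium-like cells at 24.1 CPM. In the P1 maxillary library the highest class was suprabasal oral-like, and next came neuron-like cells at 14.0 CPM. Mineralizing cells were no higher than the next class in either library. In the E15.5 mandibular library Adamts18 stood at 75.9 CPM in chondrocyte-like cells and lower in osteoblast-like cells. Within epithelium it stood at 103 CPM in the Krt13-led cluster of the maxillary library and at 113 CPM (103 to 124) in an Isl1- and Fat2-led cluster of 292 cells of the mandibular library, which also held 246 CPM of Adamts9, 200 CPM of Adamts17 and 123 CPM of Adamts3. Adamts9 peaked in Odam-led clusters, at 340 CPM (327 to 353) in 613 maxillary and 553 CPM (529 to 577) in 180 mandibular cells, and Mmp14 stood at 177 and 230 CPM there. Mmp27, whose total over all libraries was 200 UMIs and which was chosen after its values were seen, had 56 UMIs (10.8 CPM) in the mandibular Enam- and Amelx-led cluster.

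Between E15.5 and P1, 1 of 15 members tested in epithelium was at least 2-fold higher in both jaws (5.27% of all genes) and 3 were lower (3.46%). Adamts17 was higher, by a log2 ratio of 1.79 (1.70 to 1.88) in the maxillary and 1.59 (1.42 to 1.75) in the mandibular molar. Adamts17 was detected in 6.47%, 10.5%, 16.4% and 28.3% of epithelium-like cells after thinning (30.6%, 39.2%, 41.6% and 67.5% unthinned) and in at most 0.576% of erythroid-like cells. Adamts18 was lower, by −3.10 (−3.26 to −2.96) and −2.26 (−2.47 to −2.03), as were Mmp16 (−1.37, −1.35) and Adamts6 (−1.12, −1.23). Without the shared barcodes the maxillary ratios were 0.29 for Adamts17, −2.11 for Adamts18, −0.42 for Mmp16 and 0.31 for Adamts6, which left 0 higher and 1 lower. Averaged over cells in place of summed UMIs, the maxillary ratio of Adamts17 was 0.93.

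The makeup of the epithelium changed together with these levels, and a change in the cells caught cannot be told apart from a change in level per cell. Within Krt13-led cells of the maxillary library Adamts18 went from 126 to 103 CPM, a log2 ratio of −0.29 (−0.48 to −0.10), and Adamts17 from 28.3 to 21.4 CPM, −0.40 (−0.84 to 0.01). In the mandibular library the class of that name was the whole epithelium at E15.5 (143 cells, with Krt5 and Krt14 among its leading genes) and 60 suprabasal cells at P1, so like cells were not compared, and it went from 92.1 to 8.19 CPM of Adamts18 and from 115 to 10.5 CPM of Adamts17. Adamts19 was the 1 of 14 members tested in this class that was lower at P1 in both jaws (1.21% of all genes), with 0 higher (0.874%), on 9 and 5 UMIs at P1. The rise of Adamts17 over whole epithelium was thus not seen within the maxillary Krt13-led cells.

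**Figure D4:**
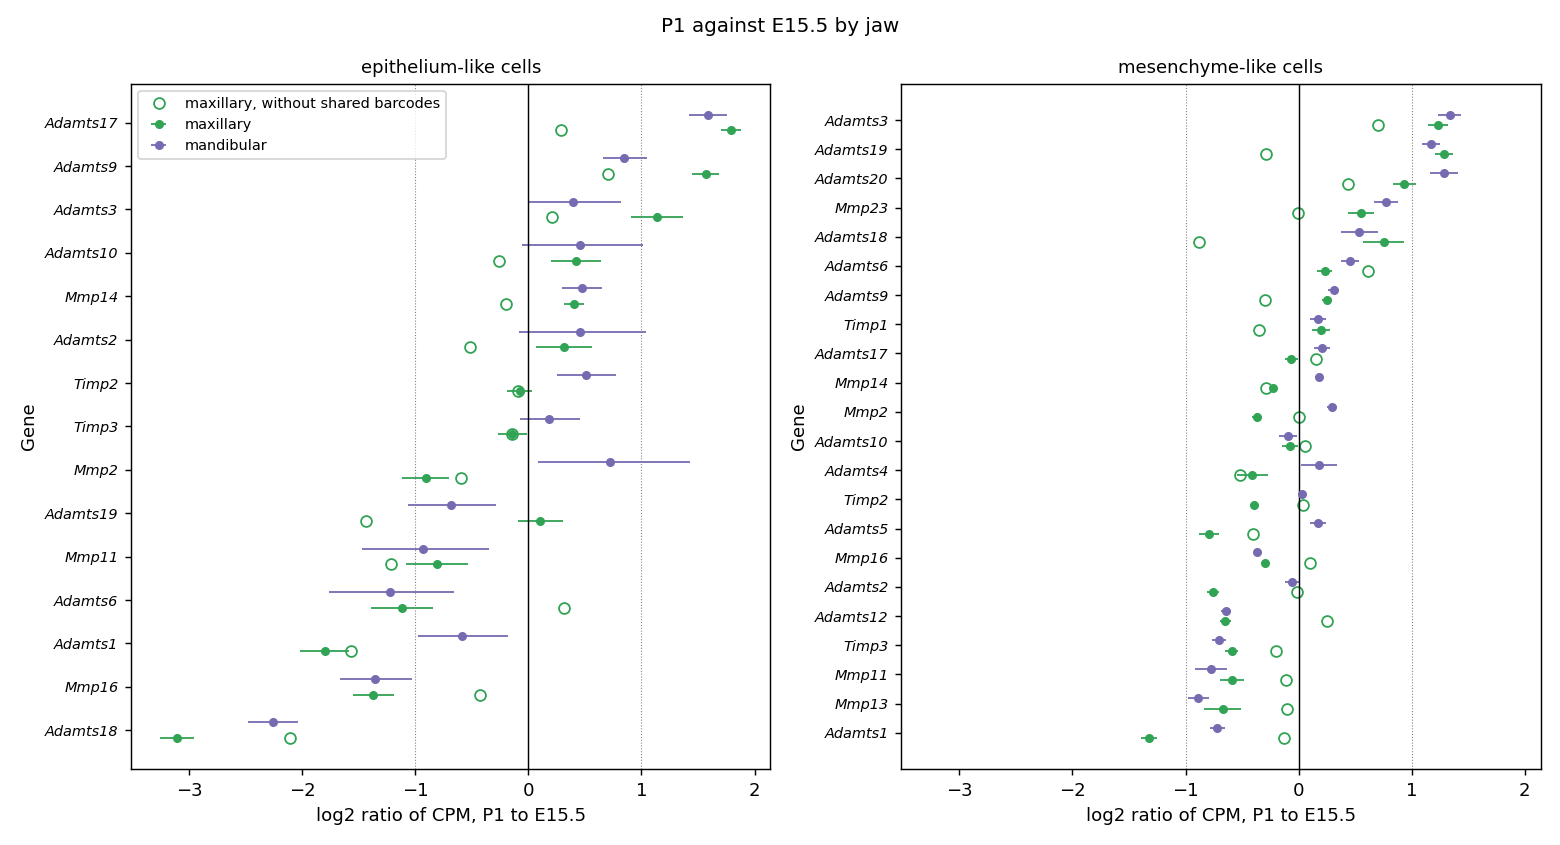
log2 ratio of CPM at P1 to E15.5 (horizontal axis) for each tested gene (vertical axis) in epithelium-like (left, 15 genes) and mesenchyme-like cells (right, 22 genes), with filled points by jaw, 95% counting intervals, and dotted lines at 2-fold. Open circles give the maxillary ratio without the shared barcodes, which for Adamts17 in epithelium is 0.29 beside 1.79 and for Adamts19 in mesenchyme −0.29 beside 1.29.

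In mesenchyme, 2 of 22 members tested were at least 2-fold higher at P1 in both jaws (4.73% of all genes) and 0 were lower (1.89%). The median ratios were −0.26 and 0.18, against −0.02 and −0.03 over all genes. Adamts3 had log2 ratios of 1.23 (1.14 to 1.32) and 1.33 (1.24 to 1.43). Mandibular papilla-like cells, its highest class there, showed no such rise, with 95.3 (79.0 to 114) and then 92.9 CPM (89.4 to 96.5). They made up 101 of 3173 mandibular mesenchyme-like cells at E15.5 but 1918 of 5258 at P1. In the maxillary molar papilla-like cells held at most 29.5 CPM at the earlier stage, against 66.3 CPM at the later. How far the makeup of the mesenchyme set the Adamts3 ratios was not tested. Adamts19, an orphan relative of Adamts17, rose from 29.4 and 35.8 CPM to 71.8 and 80.6 CPM, ratios of 1.29 and 1.17. As the plot of stage ratios shows, the maxillary ratios depended on the shared barcodes, which the mandibular library did not keep: without them Adamts3 had 0.70 and Adamts19 had −0.29, leaving 0 called, and averaged over cells they had 0.81 and 0.95. The remaining genes did not pass 2-fold in the same direction in both jaws, among them Adamts20 (0.94, 1.29), Adamts1 (−1.32, −0.72), Timp3 (−0.59, −0.70) and Adamts12 (−0.65, −0.64).

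Within single classes few members passed the same mark. In papilla-like cells, the source of odontoblasts, Mmp23 went from 5.98 to 23.7 CPM in the maxillary and from 8.74 to 26.3 CPM in the mandibular molar, and Timp1 from 8.59 to 19.7 and from 7.94 to 27.7 CPM, while Adamts1 fell from 20.2 to 8.43 and from 21.4 to 10.2 CPM. These were 2 higher (3.97% of all genes) and 1 lower (3.29%) of 20 tested, on 293 and 101 cells at E15.5, and Timp1 in the maxillary library had −0.18 without the shared barcodes. In endothelium-like cells 1 of 17 was higher (1.58% of all genes) and 0 were lower (0.302%): Adamts3 went from 4.71 to 12.6 and from 4.02 to 10.4 CPM, with 0.56 in the maxillary molar without the shared barcodes. Pericyte-like cells had 2 of 25 higher (2.2%) and 0 lower (0.71%), the former being Mmp28 and the von Willebrand factor protease Adamts13, the latter from 4.43 to 10.2 and from 2.39 to 12.1 CPM on no more than 12 UMIs in a library and 104 in all. The counting interval of its maxillary ratio, −0.33 to 2.90, took in 0. Muscle-like cells had 2 of 17 higher (1.47%) and 0 lower (0.414%). These were Adamts14, from 11.9 to 23.9 and from 8.80 to 33.4 CPM, and Adamts8, a further proteoglycanase chosen after its values were seen. In the mandibular molar this class held progenitor- and differentiating-like clusters at E15.5 but a progenitor-like cluster alone at P1, so like cells were not compared. Fibroblast-like cells had 0 of 21 higher (1.68%) and 0 lower (0.857%), in a class that did not pool the same clusters in each library.

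Comparison of the jaws gave few differences. In epithelium 0 of 13 members tested was higher (0.294% of all genes) or lower (0.109%) in the maxillary molar by 2-fold at both stages, on 143 cells in the E15.5 mandibular library. In mesenchyme, 1 of 22 was lower in the maxillary molar (0.717%) and 0 were higher (0.728%). That gene was Mmp13, at 11.1 against 48.5 CPM at E15.5 and 6.99 against 26.3 CPM at P1, log2 ratios of −2.12 (−2.25 to −2.00) and −1.91 (−2.05 to −1.77). The P1 ratio was −2.07 in the shared and −1.34 in the unshared maxillary cells, and −1.28 with called doublets removed.

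At E15.5 most Mmp13 UMIs of both jaws lay in osteoblast-like cells, as given above. With osteoblast-like, chondrocyte-like and mineralizing cells left out, the level there was 1.37 against 1.28 CPM, a log2 ratio of 0.10 (−0.46 to 0.66). At P1 the same step could not compare like cells. The maxillary library had no class named osteoblast-like and kept 546 of its 556 mesenchymal Mmp13 UMIs, whereas the mandibular library lost most of its own. The ratio of 0.93 (7.63 against 4.003 CPM) was thus set by which classes could be named. Timp1 was lower in the maxillary molar by less than 2-fold (−0.82, −0.80), and Mmp11 was higher by 0.46 and 0.65. Adamts5 had −0.46 and −1.43. Below the limit of 10 CPM at 1 or both stages, and chosen after their values were seen, Adamts15 had −1.02 and −1.33 and Adamts16 −1.27 and −1.66, where the P1 values without the shared barcodes were −0.21 and 0.30. Since each jaw had 1 library at a stage, a jaw difference and a difference between dissections cannot be told apart.

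At P1 a cluster led by Bglap, Dmp1 and Phex, genes of mineralizing matrix, was found in both jaws (395 maxillary and 384 mandibular cells). It matched the odontoblast list best but had more osteoblast than odontoblast markers among its leading genes, so it is called mineralizing here. It was compared with the papilla-like cells of the same library. Of 20 members tested, 6 were higher in mineralizing cells in both jaws (5.62% of all genes) and 4 were lower (12.9%). Of the 3 procollagen N-propeptidases Adamts14 and Adamts2 were among the higher ones: Adamts14 stood at 25.2 against 1.23 and 38.7 against 2.46 CPM (log2 ratios 4.36 and 3.98), and Adamts2 at 128 against 19.7 and 163 against 26.97 CPM (2.70 and 2.60). Adamts3 was not, with ratios of −0.50 and −1.36. Col1a1, a collagen chain that N-propeptidases trim, was higher in the same cells, by 2.78 and 3.17. The collagen chain Col3a1 was lower in them by at least 2-fold in both jaws.

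Timp1 was also higher in mineralizing cells, at 163 against 19.7 and 247 against 27.7 CPM (3.05 and 3.16), whereas Timp3 was lower, at 6.44 against 50.2 and 2.80 against 35.5 CPM (−2.96 and −3.67). Timp2 did not reach 2-fold, with −0.58 and −0.20. Timp1 and Timp3 therefore went opposite ways between these classes. Mmp16 was higher together with Timp1, at 470 against 124 and 523 against 123 CPM (1.92 and 2.09), as did Adamts17 (2.73 and 2.16) and Adamts5 (3.06 and 2.59). Mmp11 (−1.94, −2.66), Adamts20 (−1.77, −2.26) and Adamts19 (−1.42, −2.00) were lower. Mmp14 differed less, by 0.65 and 0.63. Nearly all maxillary cells of both classes were shared barcodes. Without them, the maxillary Timp3 ratio was −0.33.

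A list of 36 further genes of pericellular proteolysis and one of 18 matrix substrates were read beside the enzymes. Of the partners, 15 of 27 tested at E15.5 and 13 of 27 at P1 were lower in epithelium (10.6% and 11.9% of all genes) and 0 were higher (7.84% and 8.13%). Reck, a membrane-bound inhibitor of several Mmp enzymes, stood at 10.7 and 9.17 CPM in epithelium against 60.3 and 47.1 CPM in mesenchyme at E15.5. Pcsk5, a proprotein convertase, stood at 36.2 and 20.5 against 93.5 and 112 CPM. Of the substrates, 12 of 14 tested at E15.5 and 12 of 13 at P1 were lower in epithelium, fibronectin (Fn1) by −2.71, −3.80, −3.01 and −3.82.

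Across stage, the partner genes with a 2-fold change in epithelium were Tll1, a procollagen C-proteinase of the Bmp1 group, and Adam23, which were higher at P1, and the serine protease Htra1, which was lower (−2.06, −1.29), out of 19 tested (5.27% of all genes higher, 3.46% lower). In mesenchyme 1 of 26 partners was higher (4.73% of all genes), Adam23, from 10.9 to 46.6 and from 15.4 to 49.1 CPM. Among 13 substrates in mesenchyme, 2 were higher (4.73% of all genes) and 1 was lower (1.89%) in both jaws. Vcan, the proteoglycan versican, went from 654 to 1790 and from 648 to 1336 CPM, and Tnc, tenascin C, from 103 to 225 and from 149 to 311 CPM. Acan, aggrecan, was the 1 substrate that was lower. Without the shared barcodes the maxillary log2 ratios were 0.01 for Vcan and −0.07 for Tnc, and Acan had the opposite sign. In mineralizing against papilla-like cells, 4 of 25 partners were higher (Pcsk5, Plaur, Htra3 and Adam19) and 6 were lower. Of 12 substrates, 4 were higher (Bcan, Col1a1, Col1a2 and Dcn) and 5 were lower (Vcan, Col3a1, Fbn1, Fbn2 and Tnc). Of all genes, 5.62% were higher and 12.9% lower. Between the jaws, 0 of 27 partners and 0 of 12 substrates in mesenchyme differed at both stages (0.728% of all genes higher, 0.717% lower).

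A few members had scattered or low sources. Adamts7, which binds cartilage oligomeric matrix protein like Adamts12, had 1805 UMIs in all and no class of at least 50 cells above 20 CPM. Of genes chosen after their values were seen, the proteoglycanase Adamts15 was read in fibroblast-like cells at 28.4 and 29.6 CPM at E15.5, Adamts16 in pericyte-like cells at 24.4 and 41.4 CPM at E15.5, Mmp19 in neutrophil-like cells at 31.03 and 26.3 CPM at E15.5, and the glycolipid-anchored Mmp25 in P1 mandibular neutrophil-like cells at 72.6 CPM. Also near the limit of detection were Mmp1b, Mmp7, Mmp10, Mmp12, Mmp21 with 40 UMIs and Mmp24 with 132, of which Mmp7, Mmp21 and Mmp24 were chosen after their values were seen. None of these 6 reached the level needed for a comparison of stages or jaws over whole epithelium or mesenchyme.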

How the data were processed

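Counts were deposited by the authors as 1 matrix of UMI counts per library, made with Cell Ranger 7.0.1 (version in the file headers) on the mm10 build from 10x 3' libraries. The counts were used as deposited, in Python 3.11.15 with scanpy 1.11.5, leidenalg 0.10.2, scipy 1.17.1 and numpy 2.4.6. Gene coordinates came from GENCODE M21 and promoters from RefSeq.

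Barcodes with at least 1000 UMIs were kept, and the 6690 P1 mandibular barcodes also kept in the P1 maxillary library were dropped there. Total UMIs were 109723360, 86659227, 128812956 and 139873101 in the order E15.5 maxillary, E15.5 mandibular, P1 maxillary, P1 mandibular. Each library was clustered apart, without the 44 genes (2000 variable genes, 40 components, 15 neighbours, Leiden resolution 1.0). A cluster was named from marker lists where the mean position of its markers was at least 0.4 with at least 3 markers detected. Clusters with a median UMI count under the library median divided by 3 stayed unnamed all the same. Outside epithelium and mesenchyme, a name also needed a marker of that lineage among the 10 leading genes. A cluster whose leading genes held more markers of another lineage could also stay unnamed. The clusters were known when these limits were set, and 779, 368, 1493 and 855 cells stayed unnamed. Epithelium and mesenchyme pool the named classes of each lineage. No doublets were removed in the main values.

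UMIs were summed per class to CPM, with exact Poisson intervals, and ratios have exact binomial intervals. UMIs of 1 library are not replicates, and the intervals cover counting error only. Shares of cells were taken after thinning to 1000 UMIs, with Clopper-Pearson intervals. The ratio scripts were tested on simulated data. The members and lists were chosen with earlier results of these data known. Named were every Timp, the up to 3 members of each role with the highest class level, and the 5 with the largest change in each direction between stages and between jaws, and others are stated as chosen after their values were seen. Alternatives were a minimum of 2000 UMIs, filters at 3 median absolute deviations, removal of doublets, both treatments of the shared barcodes, Leiden resolution 2.0, means over cells, and minimum levels of 20 or 2 CPM.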

Additional observations from a re-analysis of the deposited data

How the results depend on the processing

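No paired analysis was possible because each stage and jaw had 1 library. Of 187 repeated counts, 172 stayed within 1.5 times the main value and 15 did not. With the shared barcodes dropped from both P1 libraries, the members higher in epithelium at P1 were 0, those higher at P1 in epithelium 0, those lower at P1 in epithelium 1, and those higher at P1 in mesenchyme 0. With means over cells in place of summed UMIs, the members higher at P1 were 0 in epithelium and 0 in mesenchyme, and 1 was lower in mesenchyme. With Leiden resolution 2.0, 1 member was lower at P1 in epithelium. With a minimum of 2 CPM, 2 members were higher in epithelium at E15.5 and 2 at P1, 2 were higher at P1 in epithelium, 3 were lower at P1 in mesenchyme, 2 were lower in the maxillary mesenchyme, and 1 (E15.5) and 2 (P1) partner genes were higher in epithelium. Of the repeated log2 ratios, 1276 stayed within the main counting interval, 408 moved outside it and 4 reversed. Among 88 log2 ratios of at least 1 in size, 4 of 617 alternatives had the opposite sign: without the shared barcodes, Adamts6 in maxillary epithelium had 0.31 and Adamts19 in maxillary mesenchyme −0.29 between the stages, and without the bone-forming classes Mmp13 between the jaws had 0.10 at E15.5 and 0.93 at P1. At P1 that step took most Mmp13 UMIs from the mandibular library and few from the maxillary, which had no class named osteoblast-like. Not among these 4 are Adamts16 between the jaws at P1 and the substrate Acan in maxillary mesenchyme between the stages. As given above, both also changed sign without the shared barcodes. The causes of the other shifts were not tested. The shares of cells without thinning moved in 12 cases, as deeper cells show more genes. Small classes and genes with few UMIs have wide intervals.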
